A study of Mus musculus with 2 samples.

Results

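The genes described here encode the chemokines, the interleukins, the Toll-like receptors and the tumour necrosis factor (TNF) family with their receptors, together with the shared signalling genes Myd88, Nfkb1, Nfkbia and Rela, measured in mouse liver. Members were taken by gene symbol (symbols that begin with Ccl, Ccr, Cxcl, Cxcr, Il or Tlr and a number, symbols that begin with Tnfrsf or Tnfsf, and the single genes Tnf, Myd88, Nfkb1, Nfkbia and Rela), by a rule that uses no measured value. The rule found 59 of the 13326 gene symbols in the deposited tables. The same patterns match 187 symbols of the GENCODE mouse release M21 annotation, and the others, among them Tnf itself, were not analysed here. The libraries compared were Adipoq-/-, from mice without the gene for the adipocyte hormone adiponectin, and wild type. Both came from C57BL/6J males aged 12 weeks that had been fasted overnight. Each genotype is 1 library made from the pooled liver RNA of 9 to 10 mice, so the design holds 2 libraries and no replicates. Differences between the libraries therefore carry no replicate check and no p-values. Values of Adipoq were not used here, and the deletion was therefore not checked in the libraries. How the deletion was made and whether wild-type mice were littermates is not given in the sources used here.

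As background, chemokines are small secreted proteins that steer leukocytes along gradients by binding G-protein-coupled receptors, and they are classed as CC or CXC by the spacing of conserved cysteines. Many interleukins act through shared receptor chains that signal by JAK kinases and STAT factors, and those of the interleukin-1 family through the adaptor MYD88. Toll-like receptors recognise microbial molecules and also use MYD88, whereas TNF family ligands act on receptors of their own, and these routes converge on NF-kappa-B (RELA and the NFKB1 product), which is held inactive by the inhibitor encoded by Nfkbia. In liver, resident macrophages (Kupffer cells), endothelial cells, lymphocytes and hepatocytes all contribute to this set.

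Of the 59 members, most were listed at low levels in both libraries, and only a few differed. The values are FPKM, fragments per kilobase of transcript scaled to the mapped fragments of each library. In all, 38 members stayed under 5 FPKM in both libraries and 9 reached 10 FPKM in both. The median member stood at 2.18 FPKM in the Adipoq-/- library and 2.48 FPKM in the wild-type library, against 5.08 and 5.84 FPKM over all genes. Expression was compared as log2((Adipoq-/- FPKM + 1) / (wild-type FPKM + 1)) for the 47 members that reached 1 FPKM in either library, the minimum used throughout. The other 12 were listed between 0.232 and 0.944 FPKM. The median of this log2 ratio over all 11985 genes that passed the same minimum was -0.15. Ratios are given below after subtraction of that median and are called relative log2 ratios, so that 0 marks the all-gene median. The added 1 FPKM understates the difference of low genes.

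Among the 47 members, 3 were at least 1.5-fold higher in the Adipoq-/- library relative to the all-gene median, namely the chemokine ligands Cxcl16, Ccl6 and Ccl9. At least 1.5-fold lower were 2 members, the TNF ligand gene Tnfsf13 and the receptor gene Tnfrsf14. Over all genes, 6.73% were at least 1.5-fold higher and 2.61% at least 1.5-fold lower, which compares with 6.38% and 4.26% of the members. On this scale no member was 2-fold apart in either direction, where 0.884% of all genes were higher and 0.476% lower by that measure. The share of higher members was thus close to that of genes in general, and the lower share rests on 2 genes. Of the 27 members with a mean under 5 FPKM, 1 was higher and 2 were lower, where 4.82% of all genes at that level were higher and 3.21% lower. Of the 20 members with a mean of 5 FPKM or more, 2 were higher and 0 lower, where the shares over all genes were 8.11% and 2.17%. The split between directions followed the scaling. Without subtraction of the median, on FPKM as deposited, it was 2 higher and 3 lower (3.23% and 6.17% of all genes), with libraries scaled to equal upper quartiles 3 and 3, and with libraries scaled to equal sums 0 and 5. Over all genes the split was 806 higher and 313 lower relative to the median, 387 and 739 as deposited, 530 and 525 at equal upper quartiles and 182 and 1495 at equal sums. The median relative log2 ratio of the members was 0.15, with 29 of 47 above the all-gene median, and the median of the same genes was -0.13 at equal sums.

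**Figure D1:**
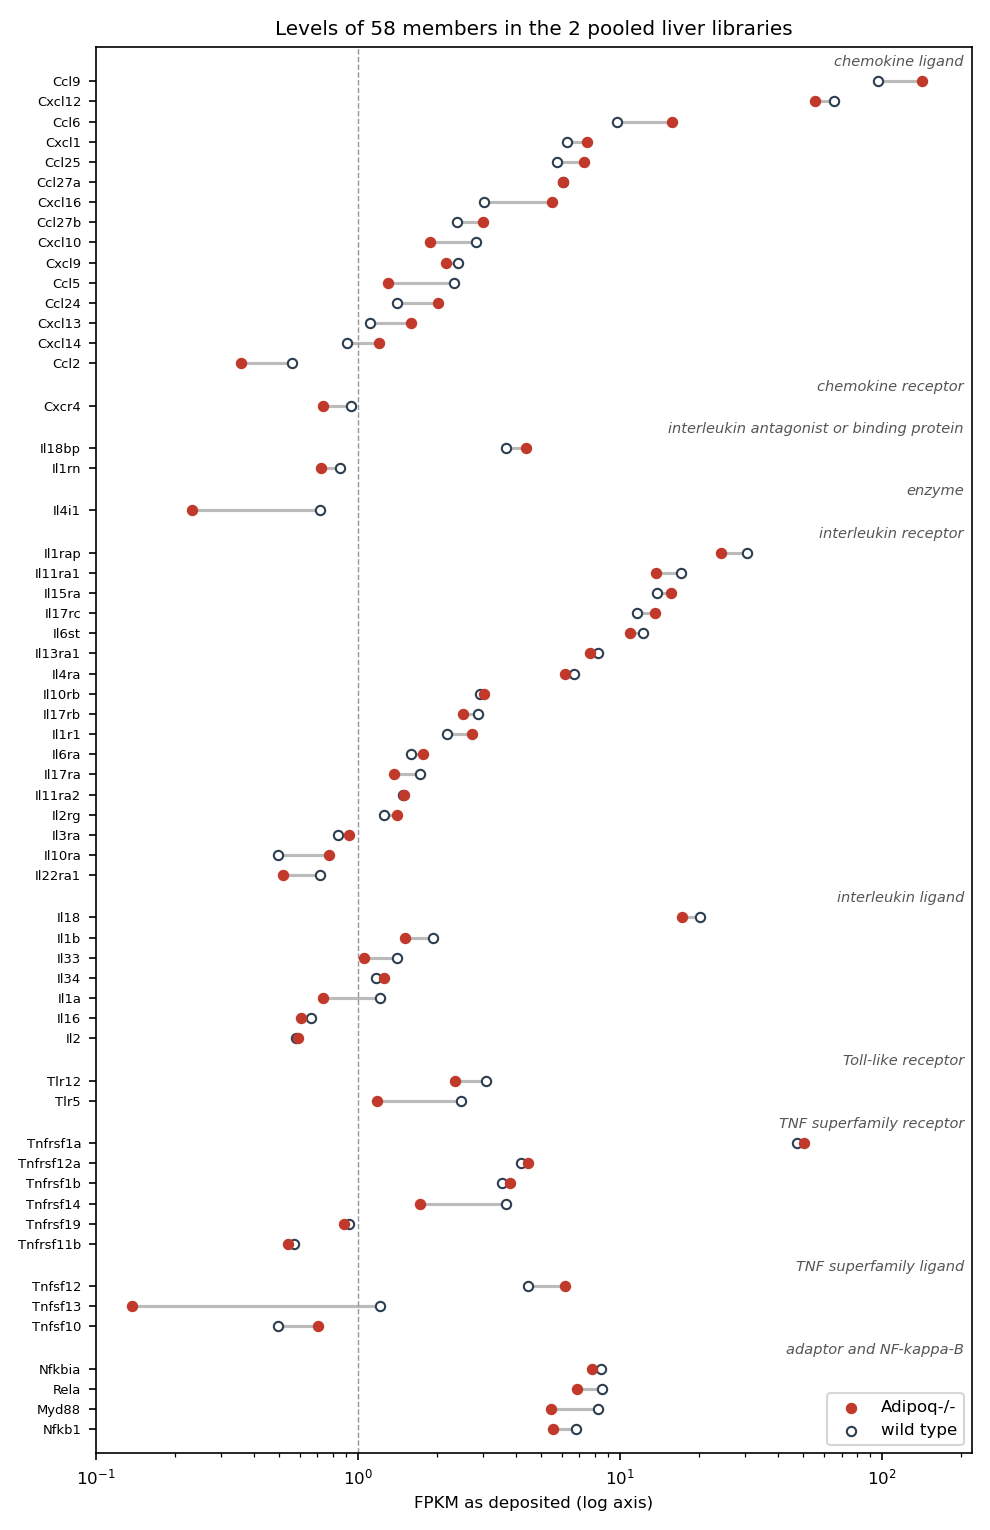
FPKM of 58 of the 59 members as deposited, on a log axis, in the Adipoq-/- library (filled red) and the wild-type library (open), grouped by role. Dots are single pooled libraries without error, and the dashed line marks 1 FPKM. Ccl9 was the most abundant member in both libraries, and the widest gap on this axis belonged to Tnfsf13.

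**Figure D2:**
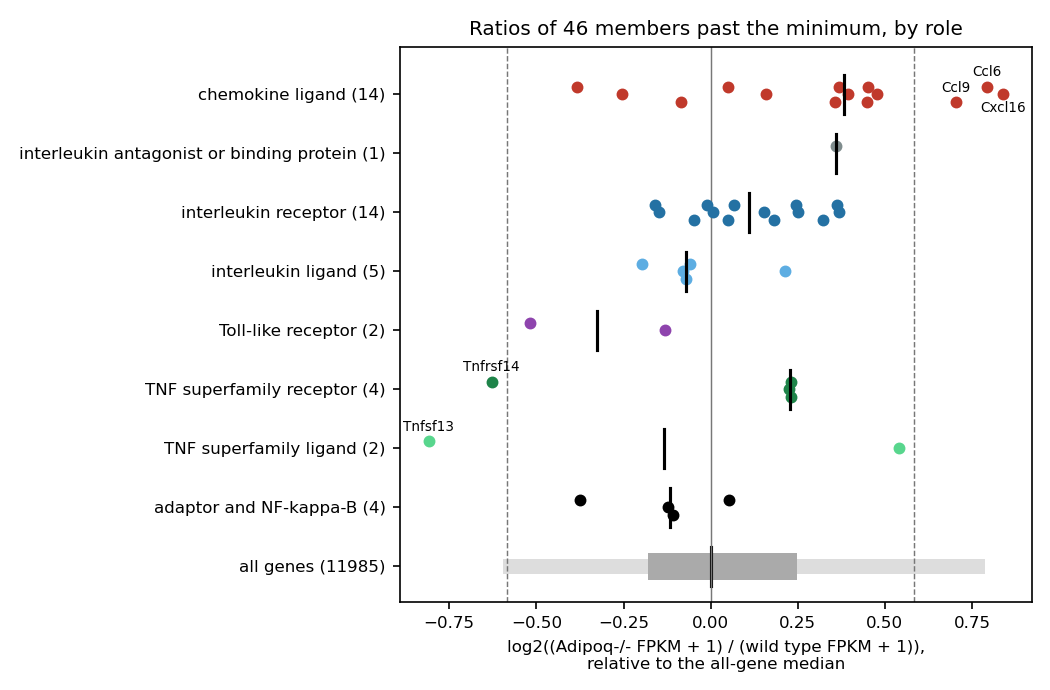
Relative log2 ratios (Adipoq-/- over wild type) of 46 of the 47 members past the minimum, 1 dot per gene, by role, with the number of genes in brackets. Black bars are medians, dashed lines mark 1.5-fold, and the grey bars at the bottom span the central 50% and 95% of all 11985 genes (-0.18 to 0.25 and -0.60 to 0.79). The chemokine ligands reach farthest to the right.

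Chemokine ligands had the highest summed level of any role and held all 3 of the higher members. Of 15 listed ligands 14 passed the minimum, 3 of them were at least 1.5-fold higher, none was lower, and 11 lay above the all-gene median. That is 21.4% of the 14 higher, where 6.73% of all genes were higher and 2.61% lower. Their median relative log2 ratio was 0.38, and 0.37 without Ccl9. Over the other settings tried it ran from 0.12 at equal sums to 0.51 with a pseudocount of 0.1 FPKM. Summed over the 15 genes they came to 252 FPKM in the Adipoq-/- library and 206 FPKM in the wild-type library. Without Ccl9 the sums were 111 FPKM in the Adipoq-/- library and 110.2 FPKM in the wild-type library, so the difference in the summed level as deposited lay in that gene. In whole liver, fewer cells of a type and less RNA per cell cannot be told apart, here and below.

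Ccl9, a CC chemokine of mouse myeloid cells, was the most abundant member. It stood at 141 FPKM in the Adipoq-/- library and 96.0 FPKM in the wild-type library. This was 1.47-fold as deposited and a relative log2 ratio of 0.70, which is past 1.5-fold relative to the all-gene median and short of it on the deposited scale. Ccl6, a related myeloid CC chemokine and the next protein-coding gene beside Ccl9 on chromosome 11, was 15.8 FPKM in the Adipoq-/- library and 9.77 FPKM in the wild-type library, with a relative log2 ratio of 0.79. Ccl5, which lies on the other side of Ccl9 in the same cluster and attracts T cells and monocytes, was 1.30 FPKM in the Adipoq-/- library and 2.33 FPKM in the wild-type library (relative log2 ratio -0.38). Of these 3 neighbours, Ccl9 and Ccl6 were past 1.5-fold and Ccl5 had a ratio of the opposite sign within it. Cxcl16, a membrane-bound chemokine that also binds oxidised lipids, was 5.49 FPKM in the Adipoq-/- library and 3.03 FPKM in the wild-type library. Its relative log2 ratio of 0.84 was the highest of all members. In the M21 annotation 18.3% of the exon bases of Cxcl16 lie within exons of Zmynd15 on the opposite strand. Zmynd15 was listed at 0.654 FPKM in the Adipoq-/- library and 0.793 FPKM in the wild-type library. The counting is not stated to use strand, and the part of Zmynd15 in the Cxcl16 value was not tested.

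The proximal promoters of Ccl9 and Ccl6 are shown because these neighbours were both higher, and those of Tnfrsf14 and Tnfsf13 because they were the lower members. Cxcl16, the other higher member, had no window in the promoter set used and was not searched. Each line holds the 250 bases before the start site from RefSeq (build GRCm38.p6, while the submitters' processing notes name mm9), read 5′ to 3′ on the gene's strand. Capitals mark matches on either strand to the NF-kappa-B consensus, to TATAAA or to GAGGAA, and overlapping matches run together. The NF-kappa-B consensus was searched as GGGRNYYYCC, where R is A or G, Y is C or T and N is any base. GAGGAA is a form of the site recognised by the myeloid factor PU.1. Wider forms of the NF-kappa-B and PU.1 sites were not searched.
Ccl9 (chr11:83578637-83578886, minus strand): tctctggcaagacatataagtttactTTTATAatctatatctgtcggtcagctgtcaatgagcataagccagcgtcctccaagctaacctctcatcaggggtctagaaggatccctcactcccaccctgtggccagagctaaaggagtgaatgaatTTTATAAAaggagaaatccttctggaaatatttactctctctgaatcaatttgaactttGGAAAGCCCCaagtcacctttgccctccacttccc
Ccl6 (chr11:83593088-83593337, minus strand): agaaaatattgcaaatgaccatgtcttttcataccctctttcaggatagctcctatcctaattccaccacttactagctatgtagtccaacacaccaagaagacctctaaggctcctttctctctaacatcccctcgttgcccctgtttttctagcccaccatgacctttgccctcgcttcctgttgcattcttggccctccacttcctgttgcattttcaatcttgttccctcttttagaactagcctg
Tnfrsf14 (chr4:154928078-154928327, minus strand): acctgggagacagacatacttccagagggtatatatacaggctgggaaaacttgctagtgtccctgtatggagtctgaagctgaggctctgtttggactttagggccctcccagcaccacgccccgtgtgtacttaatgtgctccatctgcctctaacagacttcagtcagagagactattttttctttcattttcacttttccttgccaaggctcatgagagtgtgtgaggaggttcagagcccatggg
Tnfsf13 (chr11:69685555-69685804, minus strand): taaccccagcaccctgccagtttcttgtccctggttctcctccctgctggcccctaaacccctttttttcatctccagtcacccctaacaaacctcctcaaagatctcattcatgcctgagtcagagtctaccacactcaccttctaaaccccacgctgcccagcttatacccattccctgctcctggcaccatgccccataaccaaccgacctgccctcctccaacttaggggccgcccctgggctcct
The Ccl9 window held an NF-kappa-B match that begins 35 bases before the start site and TATAAA matches that begin 224, 94 and 92 bases before it. The windows of Ccl6, Tnfrsf14 and Tnfsf13 held no match to the 3 motifs in the forms searched. A match is a run of letters and not a measured binding site.

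The remaining ligands of 1 FPKM or more stayed within 1.5-fold of the all-gene median. Cxcl12, which retains leukocytes through the receptor CXCR4, came next to Ccl9 in level, at 55.4 FPKM in the Adipoq-/- library and 65.4 FPKM in the wild-type library (relative log2 ratio -0.09). The neutrophil attractant Cxcl1 was 7.47 FPKM in the Adipoq-/- library and 6.29 FPKM in the wild-type library (0.37). Ccl25, a thymic and intestinal chemokine, was 7.27 FPKM in the Adipoq-/- library and 5.73 FPKM in the wild-type library (0.45). The eotaxin Ccl24 was 2.02 FPKM in the Adipoq-/- library and 1.41 FPKM in the wild-type library (0.48), and the B cell attractant Cxcl13 was 1.60 FPKM in the Adipoq-/- library and 1.11 FPKM in the wild-type library (0.45). Cxcl10 and Cxcl9 encode interferon-induced ligands of the receptor CXCR3. Cxcl10 was 1.89 FPKM in the Adipoq-/- library and 2.82 FPKM in the wild-type library (-0.25), whereas Cxcl9 was 2.18 FPKM in the Adipoq-/- library and 2.41 FPKM in the wild-type library (0.05). Cxcl14 was 1.20 FPKM in the Adipoq-/- library and 0.911 FPKM in the wild-type library (0.36). The skin-associated chemokine Ccl27a was 6.07 FPKM in the Adipoq-/- library and 6.03 FPKM in the wild-type library (0.16), and its copy Ccl27b was 3.01 FPKM in the Adipoq-/- library and 2.38 FPKM in the wild-type library (0.40). All 425 bases of the annotated Ccl27b transcript match Ccl27a at 95% identity or more, so the authors' counting could split reads between them and both values are uncertain. The monocyte attractant Ccl2 stayed under the minimum, at 0.357 FPKM in the Adipoq-/- library and 0.559 FPKM in the wild-type library.

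Of the chemokine receptors, Cxcr4, which binds CXCL12, was under the minimum, at 0.735 FPKM in the Adipoq-/- library and 0.944 FPKM in the wild-type library. Of the list of atypical chemokine receptors and other chemokine-like genes, 8 of 19 could be compared and none was past 1.5-fold (median relative log2 ratio 0.17, against 0 over all genes). Its farthest members were the macrophage migration inhibitory factor gene Mif, at 129.6 FPKM in the Adipoq-/- library and 112 FPKM in the wild-type library (0.36), Cmtm7 at 1.60 FPKM in the Adipoq-/- library and 1.42 FPKM in the wild-type library (0.26), and the platelet chemokine Ppbp at 1.81 FPKM in the Adipoq-/- library and 1.63 FPKM in the wild-type library (0.25). With correction for transcript length, described below, the median of the list was 0.06 and Mif came to 0.09.

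Interleukin receptors were the largest group by number, with 17 listed, and none of the 14 compared was past 1.5-fold. Their relative log2 ratios ran from -0.16 to 0.37 with a median of 0.11, and 10 lay above the all-gene median. Il1rap, the accessory chain of the interleukin-1 receptor, was the most abundant at 24.3 FPKM in the Adipoq-/- library and 30.4 FPKM in the wild-type library (-0.16). The ligand-binding chain Il1r1 was 2.71 FPKM in the Adipoq-/- library and 2.20 FPKM in the wild-type library (0.37). Il6st, the gp130 chain shared by the interleukin-6 family, was 10.9 FPKM in the Adipoq-/- library and 12.3 FPKM in the wild-type library (-0.01), and Il6ra was 1.78 FPKM in the Adipoq-/- library and 1.59 FPKM in the wild-type library (0.25). Chains of the same receptor thus differed in level, with gp130 well above Il6ra per length in both libraries.

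Il15ra, which presents interleukin-15 to lymphocytes, was 15.7 FPKM in the Adipoq-/- library and 13.8 FPKM in the wild-type library (relative log2 ratio 0.32). The interleukin-17 receptor chain Il17rc was 13.6 FPKM in the Adipoq-/- library and 11.6 FPKM in the wild-type library (0.36), while its partner Il17ra was 1.37 FPKM in the Adipoq-/- library and 1.72 FPKM in the wild-type library (-0.05). Il13ra1 and Il4ra, which pair as a receptor for interleukin-13 and interleukin-4, had relative log2 ratios of 0.07 and 0.05. Il11ra1 was 13.7 FPKM in the Adipoq-/- library and 17.1 FPKM in the wild-type library (-0.15). All 1299 bases of the annotated Il11ra2 transcript match Il11ra1 at 95% identity or more, so the values of this pair are uncertain as well. Il10rb, Il17rb, Il2rg and Il11ra2 lay between 1.26 and 3.02 FPKM in both libraries, with relative log2 ratios from 0.01 to 0.24. Il3ra, Il10ra and Il22ra1, chains that bind interleukin-3, interleukin-10 and interleukin-22, were under the minimum, between 0.495 and 0.922 FPKM in both libraries.

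Interleukins themselves were listed at 2 FPKM or less in both libraries except Il18. Il18, whose product is stored as an inactive precursor, was 17.3 FPKM in the Adipoq-/- library and 20.1 FPKM in the wild-type library (relative log2 ratio -0.06). Its soluble inhibitor Il18bp was 4.39 FPKM in the Adipoq-/- library and 3.66 FPKM in the wild-type library (0.36). The neighbouring genes of the inflammatory cytokines interleukin-1 beta and alpha were close to the minimum. Il1b was 1.52 FPKM in the Adipoq-/- library and 1.94 FPKM in the wild-type library (-0.07), and Il1a was 0.735 FPKM in the Adipoq-/- library and 1.21 FPKM in the wild-type library (-0.20). The alarmin Il33 was 1.05 FPKM in the Adipoq-/- library and 1.41 FPKM in the wild-type library (-0.08), and Il34, a ligand of the macrophage growth factor receptor, was 1.26 FPKM in the Adipoq-/- library and 1.17 FPKM in the wild-type library (0.21). None of the 5 interleukins compared was past 1.5-fold, and 4 of them lay below the all-gene median. Il1rn, which encodes the interleukin-1 receptor antagonist, Il16 and the T cell growth factor gene Il2 were under the minimum, between 0.583 and 0.851 FPKM in both libraries. Il4i1, which matches the symbol pattern but encodes an amino acid oxidase, was under the minimum too, at 0.232 FPKM in the Adipoq-/- library and 0.718 FPKM in the wild-type library. Of the inflammasome and interleukin-1 processing list, 5 of 10 could be compared and none was past 1.5-fold (median 0.24, and 0.12 with correction for transcript length). The farthest were Txnip at 40.4 FPKM in the Adipoq-/- library and 31.8 FPKM in the wild-type library (0.49), Nlrp6 at 6.27 FPKM in the Adipoq-/- library and 9.67 FPKM in the wild-type library (-0.40), and the inflammasome adaptor Pycard at 1.79 FPKM in the Adipoq-/- library and 1.49 FPKM in the wild-type library (0.31).

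Toll-like receptors were represented by Tlr5 and Tlr12, and neither was past 1.5-fold on the relative scale. Tlr5, the receptor for bacterial flagellin, was 1.18 FPKM in the Adipoq-/- library and 2.48 FPKM in the wild-type library. That is a relative log2 ratio of -0.52, and it was past 1.5-fold lower with smaller pseudocounts and on the 3 scales without centring on the median. Tlr12, which in mouse recognises profilin of Toxoplasma, was 2.35 FPKM in the Adipoq-/- library and 3.08 FPKM in the wild-type library (-0.13). Of the list of co-receptors and adaptors of these receptors, 20 of 24 could be compared, 2 were at least 1.5-fold higher and none was lower (median -0.04). The 2 genes are 10.0% of those compared, where 6.73% of all genes were higher and 2.61% lower. Ly86, which encodes MD-1, was 7.66 FPKM in the Adipoq-/- library and 3.85 FPKM in the wild-type library (0.99), and Ly96, which encodes the lipopolysaccharide-binding MD-2, was 4.81 FPKM in the Adipoq-/- library and 2.66 FPKM in the wild-type library (0.82). With correction for transcript length Ly96 came to 0.55, short of 1.5-fold, Ly86 to 0.92 and the median of the list to 0.04. The ubiquitin ligase gene Traf6 was next at 1.23 FPKM in the Adipoq-/- library and 2.16 FPKM in the wild-type library (-0.35).

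In the TNF superfamily, Tnfsf13, which encodes the B cell survival factor APRIL, was 0.138 FPKM in the Adipoq-/- library and 1.21 FPKM in the wild-type library. Its relative log2 ratio of -0.81 was the lowest of all members, on a level close to the minimum. Tnfsf12, which encodes TWEAK and is the next gene on chromosome 11, was 6.15 FPKM in the Adipoq-/- library and 4.46 FPKM in the wild-type library (0.54). In the M21 annotation, the read-through gene Tnfsfm13 covers 60.05% of the exon bases of Tnfsf13 and 48.2% of those of Tnfsf12 on the same strand. Reads on those bases cannot be assigned to 1 gene by position, so the opposite signs of the neighbours are uncertain. Tnfrsf12a, the receptor of TWEAK, was 4.47 FPKM in the Adipoq-/- library and 4.19 FPKM in the wild-type library (0.22). Tnfsf10, which encodes the death ligand TRAIL, was under the minimum, at 0.702 FPKM in the Adipoq-/- library and 0.496 FPKM in the wild-type library.

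Tnfrsf1a, the main receptor of TNF, was the most abundant receptor of the set at 50.2 FPKM in the Adipoq-/- library and 47.5 FPKM in the wild-type library (relative log2 ratio 0.23). Tnfrsf1b, the inducible TNF receptor, was 3.79 FPKM in the Adipoq-/- library and 3.53 FPKM in the wild-type library (0.23). Tnfrsf14, the herpesvirus entry mediator that lymphocytes use as a co-signalling receptor, was 1.72 FPKM in the Adipoq-/- library and 3.68 FPKM in the wild-type library (-0.63). It was the only TNF receptor past 1.5-fold among the 4 compared, and Tnfrsf19 and Tnfrsf11b, the gene of the decoy receptor osteoprotegerin, were under the minimum, between 0.543 and 0.922 FPKM in both libraries. Of the TNF receptor signalling list, 12 of 22 could be compared and none was past 1.5-fold (median -0.08). The kinase gene Map3k5 was 4.31 FPKM in the Adipoq-/- library and 6.45 FPKM in the wild-type library (-0.34), the death adaptor Fadd was 2.41 FPKM in the Adipoq-/- library and 2.06 FPKM in the wild-type library (0.31), and the kinase gene Ripk1 was 3.15 FPKM in the Adipoq-/- library and 4.34 FPKM in the wild-type library (-0.21).

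The shared adaptor and NF-kappa-B genes stayed within 1.5-fold relative to the all-gene median. Myd88 alone passed it under another setting, at -0.66 with libraries scaled to equal sums. Myd88 was 5.44 FPKM in the Adipoq-/- library and 8.27 FPKM in the wild-type library (relative log2 ratio -0.37). In the M21 annotation 11.3% of the exon bases of Myd88 lie within exons of Acaa1a, a peroxisomal thiolase gene on the opposite strand. Acaa1a was at a far higher level, 128 FPKM in the Adipoq-/- library and 228 FPKM in the wild-type library (-0.67). The counting is not stated to use strand, so reads of the pair may not have been told apart, and the part of Acaa1a in the Myd88 value was not tested. Rela was 6.86 FPKM in the Adipoq-/- library and 8.51 FPKM in the wild-type library (-0.12), and Nfkb1 was 5.53 FPKM in the Adipoq-/- library and 6.81 FPKM in the wild-type library (-0.11). The inhibitor gene Nfkbia, itself induced by NF-kappa-B, was 7.82 FPKM in the Adipoq-/- library and 8.44 FPKM in the wild-type library (0.05). As plain ratios of deposited FPKM, with no pseudocount, the wild-type value exceeded the Adipoq-/- value 1.52-fold for Myd88, 1.24-fold for Rela, 1.23-fold for Nfkb1 and 1.08-fold for Nfkbia.

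Other subunits, inhibitors and kinases of NF-kappa-B were compared from a list of their own. Of 18 listed genes 11 could be compared, and none was past 1.5-fold (median -0.08, and 0.02 with correction for transcript length). The farthest were Ikbke at 3.95 FPKM in the Adipoq-/- library and 6.18 FPKM in the wild-type library (relative log2 ratio -0.39), the kinase scaffold Ikbkg at 19.6 FPKM in the Adipoq-/- library and 26.9 FPKM in the wild-type library (-0.29), and Bcl3 at 19.7 FPKM in the Adipoq-/- library and 18.1 FPKM in the wild-type library (0.27). Of the JAK-STAT list, 21 of 25 could be compared, 2 were at least 1.5-fold lower and none was higher (median -0.15), where 2.61% of all genes were lower and 6.73% higher. Of the 21, 3 lay above the all-gene median. The list has long transcripts, and with correction for transcript length its median was -0.05, with 9 of 21 above the all-gene length curve. Cish, a feedback inhibitor induced by STAT5, was 3.71 FPKM in the Adipoq-/- library and 9.25 FPKM in the wild-type library (-0.97), and Stat5a was 1.69 FPKM in the Adipoq-/- library and 3.93 FPKM in the wild-type library (-0.72). The receptor gene Lifr, at 29.5 FPKM in the Adipoq-/- library and 24.6 FPKM in the wild-type library (0.41), was the farthest on the upper side.

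Among the members with a promoter in the RefSeq table (47 of 59), 5 held the NF-kappa-B consensus, in the form given above, in the 250 bases before the start site. They were Ccl9, Cxcl1, Cxcl10, Il16 and Nfkbia. This is 10.6%, against 5.0% of all 32851 promoters. TATAAA was found in 25.5% of the members and 12.4% of all promoters, and GAGGAA in 25.5% and 23.3%. The windows of the textbook NF-kappa-B targets Cxcl1, Cxcl10 and Nfkbia are shown with the same capitals as above, because their levels are often read as NF-kappa-B output.
Cxcl1 (chr5:90890995-90891244, plus strand): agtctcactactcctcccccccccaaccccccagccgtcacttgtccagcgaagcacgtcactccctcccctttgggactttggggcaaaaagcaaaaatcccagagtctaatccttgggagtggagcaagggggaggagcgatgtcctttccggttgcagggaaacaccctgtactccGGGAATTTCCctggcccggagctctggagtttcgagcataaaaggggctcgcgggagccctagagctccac
Cxcl10 (chr5:92348890-92349139, minus strand): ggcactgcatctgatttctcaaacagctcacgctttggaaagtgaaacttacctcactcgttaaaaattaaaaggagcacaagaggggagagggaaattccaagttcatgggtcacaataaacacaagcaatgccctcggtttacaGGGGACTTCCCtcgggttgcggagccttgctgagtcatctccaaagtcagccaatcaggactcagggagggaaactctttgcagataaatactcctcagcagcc
Nfkbia (chr12:55492648-55492897, minus strand): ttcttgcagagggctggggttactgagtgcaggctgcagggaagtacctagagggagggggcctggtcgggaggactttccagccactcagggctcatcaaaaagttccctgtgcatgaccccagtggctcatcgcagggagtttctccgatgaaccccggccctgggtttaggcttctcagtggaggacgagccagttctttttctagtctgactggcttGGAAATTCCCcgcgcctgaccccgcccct
The matches begin 71 bases before the start site in Cxcl1, 104 and 103 bases before it in Cxcl10, where they overlap, and 29 bases before it in Nfkbia. The Cxcl10 window also holds gggaaattcc, which has A where the form searched needs C or T and is not marked. The relative log2 ratios were 0.37 for Cxcl1, -0.25 for Cxcl10 and 0.05 for Nfkbia, all within 1.5-fold.

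Over all genes the ratio moved with transcript length, as shown in the plot of ratio against length. The Spearman rho was -0.40 across 11571 genes, which are not independent replicates. Split by length, the shortest 10% of transcripts had a median relative log2 ratio of 0.38 and the longest 10% of -0.11. Across the 47 members rho was -0.10. After subtraction of the all-gene length curve, Cxcl16 (0.94), Ccl9 (0.81) and Ccl6 (0.78) kept their position past 1.5-fold, as did Tnfsf13 (-0.82) and Tnfrsf14 (-0.81). Ccl5, whose transcripts are short, joined the lower members at -0.65. This made 3 higher and 3 lower of 47, where 2.96% of all genes were higher and 3.09% lower on the same scale. The median of the chemokine ligands was 0.29 after correction, with 11 of 14 above the curve, and the short transcripts Ccl27a and Ccl27b came to -0.12 and 0.06. Each length is a median over the annotated protein-coding transcripts of a gene, short ones included. For Il4ra it was 491 bases, where the annotated exons cover 6002 bases, and its ratio went from 0.05 to -0.25. The length used for Tnfrsf14 was 689 bases. Corrected values that rest on such short lengths are uncertain.

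**Figure D3:**
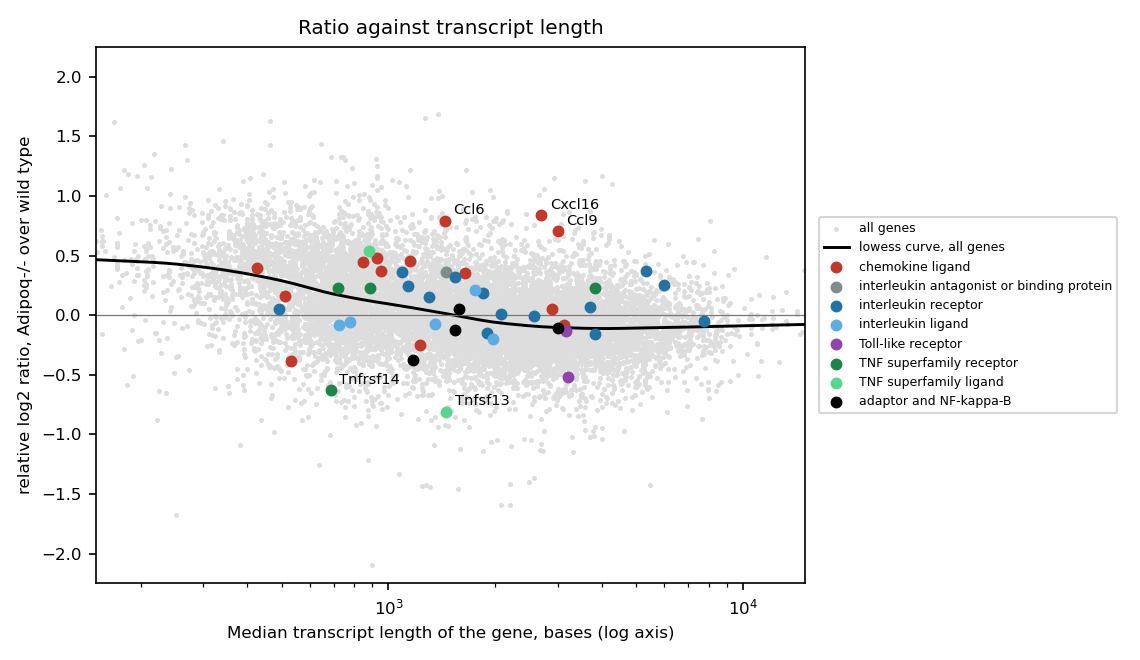
Relative log2 ratio (Adipoq-/- over wild type) against the median transcript length of each gene in the M21 annotation, on a log axis, for 46 of the 47 members (coloured by role) and all genes with a length (grey, black lowess curve). Genes beyond the axis limits are not drawn. Cxcl16, Ccl9 and Ccl6 lie above the curve and Tnfsf13 and Tnfrsf14 below it.

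Several members are expressed mainly by leukocytes, so markers of the cells in whole liver were set beside them. Of the Kupffer cell and macrophage list, 11 of 12 genes were measured. Their summed level was 242 FPKM in the Adipoq-/- library and 198 FPKM in the wild-type library, 2 were at least 1.5-fold higher, none was lower and 9 lay above the all-gene median (median 0.16), where 6.73% of all genes were higher and 2.61% lower. Lyz2 was 116 FPKM in the Adipoq-/- library and 72.5 FPKM in the wild-type library (relative log2 ratio 0.82), and Marco was 3.72 FPKM in the Adipoq-/- library and 1.26 FPKM in the wild-type library (1.21). The difference in the summed level of the list as deposited lay mostly in Lyz2. The Kupffer cell marker Clec4f was 48.9 FPKM in the Adipoq-/- library and 52.04 FPKM in the wild-type library (0.06). Of the other genes of the list, Emr1 (0.50), Vsig4 (0.40) and Timd4 (0.37) lay above the all-gene median within 1.5-fold. Cd163, Cd5l and Clec4a2 lay between 0.04 and 0.16, and Csf1r (-0.03) and Cd68 (-0.04) lay below it. The part of these cells in the Ccl6, Ccl9 and Cxcl16 values was not tested.

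Lymphocyte and granulocyte markers were scarce. Of the T and natural killer cell list 3 of 11 were measured, with a summed level of 3.67 FPKM in the Adipoq-/- library and 2.24 FPKM in the wild-type library. The T cell co-receptor gene Cd4 was 2.36 FPKM in the Adipoq-/- library and 1.08 FPKM in the wild-type library (relative log2 ratio 0.85). It was the only gene of this list past the minimum. Gzma was 0.615 FPKM in the Adipoq-/- library and 0.726 FPKM in the wild-type library, and Lck was 0.697 FPKM and 0.434 FPKM in the same order. Of the B and plasma cell list 3 of 7 were measured (5.04 FPKM in the Adipoq-/- library and 4.41 FPKM in the wild-type library). Igj was 2.81 FPKM in the Adipoq-/- library and 1.69 FPKM in the wild-type library (0.66). The others were lower as deposited. Cd79b was 1.51 FPKM in the Adipoq-/- library and 1.74 FPKM in the wild-type library (0.03). Cd79a was under the minimum, at 0.712 FPKM in the Adipoq-/- library and 0.982 FPKM in the wild-type library. The single monocyte and dendritic cell marker analysed, Ly6c2 of 7, was 1.06 FPKM in the Adipoq-/- library and 0.604 FPKM in the wild-type library. Neutrophil genes, 4 of 7, summed to 20.5 FPKM in the Adipoq-/- library and 24.6 FPKM in the wild-type library, with S100a9 at 12.7 FPKM in the Adipoq-/- library and 12.6 FPKM in the wild-type library (0.16) and S100a8 at 6.69 FPKM in the Adipoq-/- library and 9.87 FPKM in the wild-type library (-0.35). With correction for transcript length S100a9 came to -0.12 and S100a8 to -0.64, past 1.5-fold lower. The corrected median of the 3 neutrophil genes past the minimum was -0.33. No marker analysed here was listed at 0.

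Among the other cells, the 7 sinusoidal endothelial genes summed to 70.7 FPKM in the Adipoq-/- library and 64.98 FPKM in the wild-type library, led by Clec4g and Oit3, and 6 of 7 stellate cell genes to 69.8 FPKM in the Adipoq-/- library and 69.7 FPKM in the wild-type library, led by Dcn and Reln. None of these genes was past 1.5-fold. Of the cholangiocyte list 3 of 5 were measured, and Spp1 was 21.01 FPKM in the Adipoq-/- library and 13.4 FPKM in the wild-type library (relative log2 ratio 0.76). Sox9 was 1.52 FPKM in the Adipoq-/- library and 1.72 FPKM in the wild-type library (0.04). Krt19 was 1.09 FPKM in the Adipoq-/- library and 1.02 FPKM in the wild-type library (0.20). Of the adipocyte list only Cfd was analysed, at 2.01 FPKM in the Adipoq-/- library and 13.3 FPKM in the wild-type library (-2.09). Hepatocyte genes dominated, as the tissue label has it, with Alb at 14031 FPKM in the Adipoq-/- library and 17522 FPKM in the wild-type library and Ttr at 6885 FPKM in the Adipoq-/- library and 6905 FPKM in the wild-type library.

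**Figure D4:**
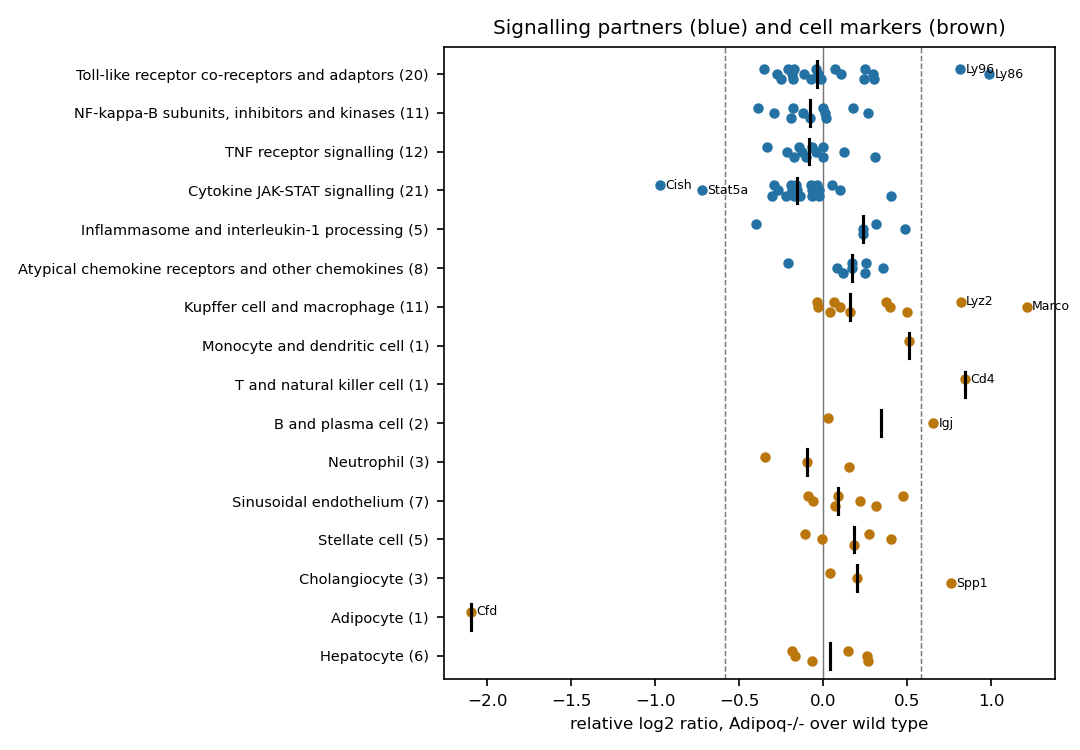
Relative log2 ratios (Adipoq-/- over wild type) of the signalling partner lists (blue) and cell marker lists (brown), 1 dot per gene of 1 FPKM or more in at least 1 library, with list medians as black bars, dashed lines at 1.5-fold and the number of genes in brackets. Genes past 1.5-fold are named, and Marco and Ly86 are the farthest to the right.

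The settings plot shows how far each ratio depends on scaling. Cxcl16 ranged from 0.55 to 1.02, Ccl6 from 0.49 to 0.87 and Ccl9 from 0.39 to 0.81 over the 9 other settings. At equal sums all 3 fell short of 1.5-fold, and Ccl9 did so on FPKM as deposited as well. Tnfrsf14 ranged from -0.88 to -0.63 and Tnfsf13 from -2.29 to -0.81 over the 8 in which they passed the minimum. Nfkbia (-0.24 to 0.07), Il6st (-0.31 to 0.08), Cxcl12 (-0.39 to 0.02) and Tnfrsf1a (-0.08 to 0.26) changed sign in at least 1 setting, so these data give no direction for them. A sign kept over all settings is no replicate check, since every setting uses the same 2 libraries. Members other than the 29 named ones were not followed one by one.

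**Figure D5:**
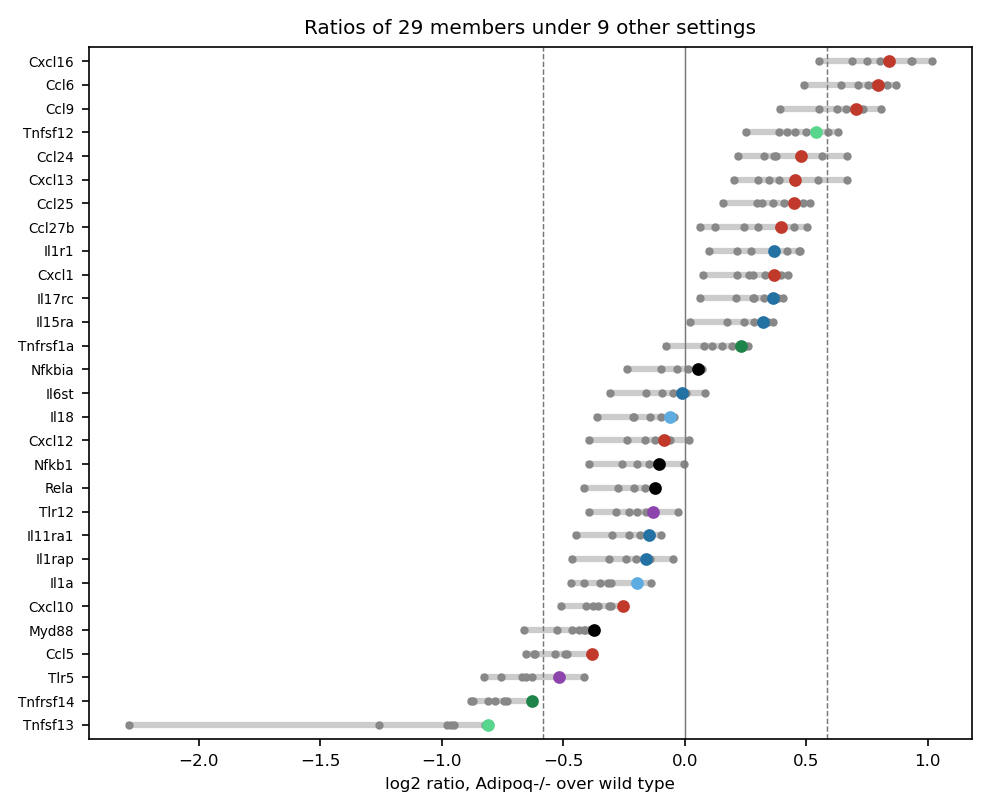
Log2 ratios (Adipoq-/- over wild type) of 29 members under the settings of the text (large dots, coloured by role) and under 9 other settings (small grey dots on a bar that spans them), with dashed lines at 1.5-fold. Cxcl16, Ccl6 and Ccl9 stay above 0 and Tnfsf13 and Tnfrsf14 below it under every setting drawn.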

How the data were processed

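Liver RNA of Adipoq-/- and wild-type mice was sequenced as 1 pooled library per genotype, prepared with an Illumina kit per the labels' protocols. The deposited values are FPKM computed by the authors, 1 per gene symbol and library. TopHat, Cuffdiff, mm9 and NCBIM37 are named in the submitters' processing notes, and their roles, versions, annotation, strand setting and row filters are not stated there. Both tables list 13352 rows, and 26 symbols appear in 2 rows, of which the higher by mean FPKM was used. Summed FPKM came to 891964 in the Adipoq-/- and 798170 in the wild-type library. The depth is unknown: among 1303 genes low in both libraries (under 1 FPKM), no log2 ratio (at 3 decimals) recurred in more than 5, and whole reads were not recovered.

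Genes needed at least 1 FPKM in at least 1 library, a pseudocount of 1 FPKM was used, and a difference was counted from 1.5-fold relative to the all-gene median. No test was possible with 1 library per genotype. Transcript lengths (median per gene, found for 96.5% of genes) came from GENCODE M21 and were fitted by lowess (fraction 0.3, statsmodels 0.14.6). Shared exons and near copies (95% identity over at least 20% of a transcript, blastn 2.17.0+) used the same annotation. The ratio and the length correction were tested on simulated data. Changes were planted only in genes of 5 FPKM or more in the wild-type library, with the same noise at every level. The calling of changes in lower genes was therefore not tested. Named members were the 10 highest and 10 lowest ratios, the 10 most abundant, those past 1.5-fold and the 4 listed signalling genes. The text also gives the other members, 3 genes of each partner list and the most abundant or farthest markers. For 1 member, which enters the counts, values are not reported here. Members and lists were chosen with earlier results of these data known.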

Additional observations from a re-analysis of the deposited data

How the results depend on the processing

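No paired analysis was possible because each genotype has 1 library. A pseudocount of 0.1 FPKM gave 6 members higher and 4 lower by 1.5-fold, where 9.52% of all genes were higher and 5.9% lower. A minimum of 5 FPKM gave 0 lower, since Tnfsf13 and Tnfrsf14 do not reach it, and left 21 members with a median of 0.030. The median of the members was 0.0016 with FPKM as deposited and 0.047 at equal upper quartiles. At equal sums there were 0 higher and 5 lower with a median of -0.13, a scaling that moved the all-gene median to -0.28. Leaving out the 11 compared members with shared exons or near copies, an alternative added after seeing the data, gave 2 higher (Ccl6 and Ccl9), 1 lower (Tnfrsf14) and a median of 0.06 over 36 members. Of 250 values of the 29 named members, 233 stayed on their side of 1.5-fold, 4 no longer reached it, 13 newly did and none that was past it changed sign. Depth is unknown, so counting error cannot be given, and it weighs most on the 27 compared members with a mean under 5 FPKM.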

Other observations

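Some members under the minimum share exon bases with other genes. Il4i1 shares 83.9% of its exon bases with Tbc1d17 on the opposite strand. Il4i1 was 0.232 FPKM in the Adipoq-/- library and 0.718 FPKM in the wild-type library, and Tbc1d17 was 14.5 FPKM in the Adipoq-/- library and 22.01 FPKM in the wild-type library. Il16 shares 15.3% of its exon bases with Stard5, which was 44.9 FPKM in the Adipoq-/- library and 43.1 FPKM in the wild-type library, while Il16 was 0.608 FPKM in the Adipoq-/- library and 0.662 FPKM in the wild-type library. The part of the neighbours in these low values was not tested.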
